A study of Mus musculus with 4 samples.

Results

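The 10 genes described here encode regulators of the BCL2 family, which decides whether the outer mitochondrial membrane is opened during apoptosis. They are Bcl2, Bcl2l1, Bcl2l2, Mcl1, Bax, Bak1, Bok, Bbc3, Bcl2l11 and Bmf. They were taken by symbol, through the Ensembl identifier and the GRCm38 annotation, from a table of raw read counts for 55812 features. All 10 were found, and all 10 passed the filter on low counts that left 14701 genes for testing. The libraries came from primary Leydig cells, the androgen-producing cells of the testis interstitium, of mice labelled as 6 months old. There were 2 samples that received a small interfering RNA against Trps1 (Trps1 siRNA) and 2 that received a control (Negative siRNA). Mouse strain, siRNA dose and time are not stated in the labels. Nor do they state that a group's samples were independent cultures or animals. The p-values below therefore reflect the spread among 4 samples, part of which may be technical. That spread was estimated for each gene with the help of the other tested genes. A p-value or interval thus does not measure a gene's own spread alone.

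The family works as a balance of 3 kinds of protein. Pro-survival members (Bcl2, Bcl2l1, which encodes BCL-XL, Bcl2l2, which encodes BCL-W, and Mcl1) hold BAX, BAK and BH3-only proteins in check. Effectors (Bax, Bak1 and Bok) form pores in the mitochondrial membrane, through which cytochrome c leaves and activates caspases. BH3-only proteins (Bbc3, which encodes PUMA, Bcl2l11, which encodes BIM, and Bmf) sense stress and either occupy the pro-survival proteins or activate the effectors. In the mouse testis, BCL-W is needed for adult spermatogenesis, and BOK was named as the BCL2-related ovarian killer after its expression in reproductive tissue.

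Library totals ran from 17844125 to 21597187 counts with Trps1 siRNA and from 20116799 to 25852898 with Negative siRNA. The targeted gene Trps1, a GATA-type repressor, had 23.5 and 30.1 CPM (counts scaled to library size) with Trps1 siRNA, against 38.1 and 42.2 CPM with Negative siRNA, so the knockdown was partial (0.671 of the control, edgeR adjusted p = 0.000351). Ccnd1, a cyclin gene also read as a check of the labels, had 62.7 and 54.8 CPM with Trps1 siRNA and 83.8 and 79.5 CPM with Negative siRNA. Leydig identity was checked on 8 markers, all of which were expressed. They summed to 6035 and 6477 CPM with Trps1 siRNA and to 4054 and 4337 CPM with Negative siRNA, and 6 of the 8 rose. Star (mean 297 CPM with Trps1 siRNA, 316 CPM with Negative siRNA) and Insl3 (265 and 262 CPM) did not pass the test. Macrophages were also present. Their 18 markers, none at 0, summed to 3023 and 2410 CPM with Trps1 siRNA and to 3576 and 3541 CPM with Negative siRNA, and 11 of the 18 fell. The 8 endothelial markers summed to 41.2 and 40.8 CPM with Trps1 siRNA and 44.9 and 35.2 CPM with Negative siRNA, and the 8 lymphocyte markers to 3.03 and 1.89 CPM with Trps1 siRNA and 3.53 and 3.32 CPM with Negative siRNA. None of the 8 endothelial markers and not the 1 lymphocyte marker that could be tested passed the test. Of 7 Sertoli markers 4 were tested and 1 rose (Gata1), and of 6 peritubular myoid markers 4 were tested, 1 rose and 2 fell. Of 9 germ cell markers 3 were tested and 2 rose, with Tnp1 at 0. The 2 were Kit (mean 107 CPM with Trps1 siRNA, 82.8 CPM with Negative siRNA) and Zbtb16 (40.9 and 32.8 CPM). Dazl, at 1.32 and 0.869 CPM, did not pass, and Ddx4, Sycp3, Prm1, Prm2 and Stra8 were too low to be tested. In bulk RNA, fewer cells of a type and less RNA per cell cannot be told apart. The part of these cell types in the results below was not tested.

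With Trps1 siRNA, 3 of the 10 members rose and none fell. The genes that rose came 1 from each class of protein. They were Bok, an effector, 1.57-fold, Bcl2l11, the BH3-only gene for BIM, 1.45-fold, and Bcl2l2, the pro-survival gene for BCL-W, 1.20-fold. Among all tested genes 5.24% rose, 6.00% fell and 11.2% changed in either direction (edgeR's quasi-likelihood test, Benjamini-Hochberg adjusted p under 0.05). The other 7 members did not pass the test, and 6 of these had a negative log2 fold change. The median log2 fold change of the 10 was -0.07, beside 0.00 for all tested genes. DESeq2 called 2 of the 10, Bok and Bcl2l11, where it called 8.36% of the genes it gave an adjusted p.

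**Figure D1:**
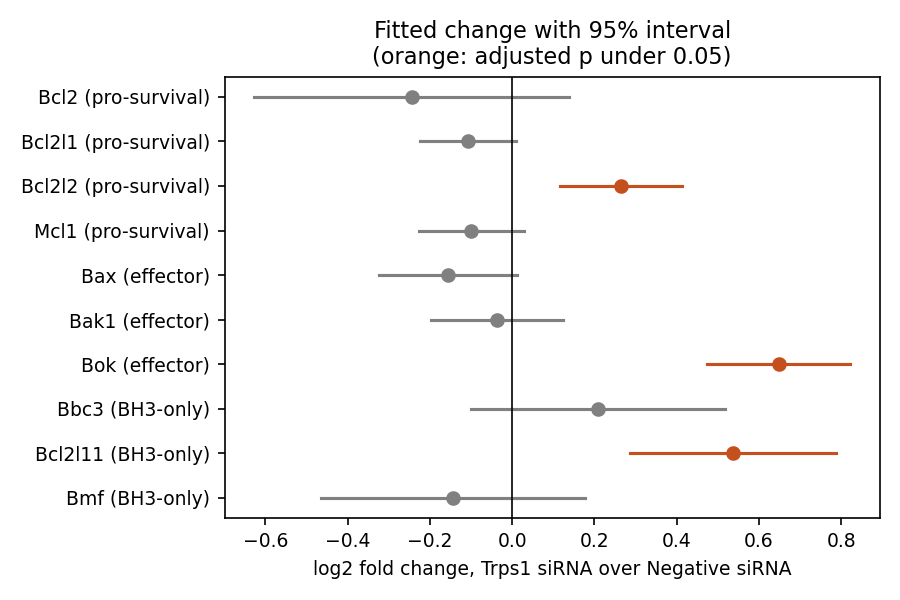
Log2 fold change of each member, Trps1 siRNA over Negative siRNA, with its 95% interval from the edgeR fit on 2 samples per group. Orange marks an adjusted p under 0.05. The intervals of Bok, Bcl2l11 and Bcl2l2 lie above 0, and the other 7 include 0.

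Levels of different genes were compared per length of exon, as RPKM (CPM per kilobase of exon). Mcl1 was the most abundant member in every library and Bcl2l1 the second. Bcl2 itself, which gave the family its name, was the least abundant, at 0.538 and 0.588 RPKM with Trps1 siRNA and 0.587 and 0.742 RPKM with Negative siRNA. With Trps1 siRNA the order of the mean RPKM was Mcl1, Bcl2l1, Bok, Bax, Bak1, Bcl2l2, Bbc3, Bcl2l11, Bmf and Bcl2, and no neighbours in that order overlapped between their 2 samples. With Negative siRNA it was Mcl1, Bcl2l1, Bax, Bak1, Bok, Bcl2l2, Bbc3, Bmf, Bcl2l11 and Bcl2, and Bmf and Bcl2l11 overlapped. Bok was thus the third most abundant member in both Trps1 siRNA samples and the fifth in both Negative siRNA samples. The RPKM divides by all annotated exon bases of a gene, 9157 for Bcl2 and 1576 for Bax. This understates genes whose long exons are little used, or whose reads on bases shared with another gene were not counted.

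**Figure D2:**
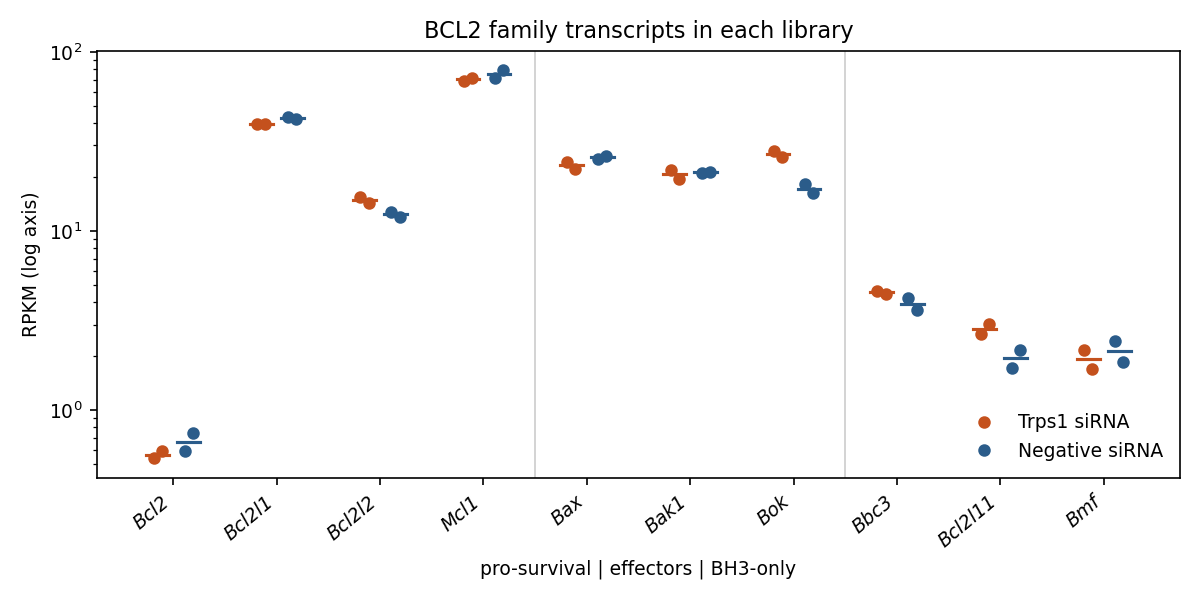
RPKM of the 10 members in each library on a log axis, with 1 point per sample, a bar for the mean of 2 samples, and Trps1 siRNA to the left of Negative siRNA for each gene. The 2 groups do not overlap for Bok, Bcl2l11, Bcl2l2 and Bbc3, which were higher with Trps1 siRNA, or for Bcl2l1 and Bax, which were lower. Mcl1, Bak1, Bmf and Bcl2 overlap. Of all tested genes, 26.0% were higher and 26.1% lower without overlap.

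Among the effectors, Bok (ENSMUSG00000026278, chromosome 1, 93685660 to 93695764, plus strand, GRCm38) encodes a BAX-like protein that sits largely at the endoplasmic reticulum and is kept low in resting cells by proteasomal degradation. It had 922 and 1029 reads, or 51.6 and 47.3 CPM, with Trps1 siRNA, against 673 and 762 reads, or 33.5 and 29.8 CPM, with Negative siRNA. Both Trps1 siRNA samples lay above both control samples. Its log2 fold change was 0.65 ± 0.08 (standard error, n = 2 per group, edgeR adjusted p = 6.22e-06), with a 95% interval of 0.47 to 0.82, and 3.22% of all tested genes had a log2 fold change as high. The call held in each of the 12 alternative analyses, including each fit without 1 sample. In the authors' deposited table Bok was the only one of the 10 members listed, with a log2 fold change of 0.64 and an adjusted p of 1.35e-07.

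Bax (ENSMUSG00000003873, chromosome 7, 45461697 to 45466898, minus strand), the effector that moves from cytosol to mitochondria when activated, had 38.0 and 35.1 CPM with Trps1 siRNA and 39.9 and 41.5 CPM with Negative siRNA. Both Trps1 siRNA samples lay below both controls, but the log2 fold change of -0.16 ± 0.08 did not pass the test (edgeR adjusted p = 0.247, 95% interval -0.32 to 0.01). Bak1 (ENSMUSG00000057789, chromosome 17, 27019810 to 27029009, minus strand), the effector that resides in the mitochondrial membrane, had 52.9 and 47.0 CPM with Trps1 siRNA and 50.9 and 51.5 CPM with Negative siRNA. These groups overlapped, the log2 fold change was -0.04 ± 0.08 (edgeR adjusted p = 0.830, 95% interval -0.20 to 0.12), and without sample 2 of Trps1 siRNA it was 0.0456. On the RPKM scale, Bok stood at 28.1 and 25.7 with Trps1 siRNA and 18.2 and 16.2 with Negative siRNA, and Bax at 24.1 and 22.3 with Trps1 siRNA and 25.3 and 26.3 with Negative siRNA. The level of Bok was above that of Bax in both knockdown samples and in neither control sample. An annotated gene on the same strand, Gm45808, shares 12.2% of the exon bases of Bax and had 0 reads in all 4 libraries. How reads on shared bases were counted is not stated. Bax may therefore have lost reads there, and its level beside that of Bok is uncertain to that extent. Bak1 shares exon bases with Ggnbp1 on the opposite strand, whose main entry had 6 to 18 reads per library.

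Of the BH3-only genes, Bcl2l11 (ENSMUSG00000027381, chromosome 2, 128126038 to 128162547, plus strand) encodes BIM, which binds all pro-survival members and in healthy cells is partly held by dynein light chain. It had 379 and 528 reads, or 21.2 and 24.3 CPM, with Trps1 siRNA, against 278 and 447 reads, or 13.8 and 17.5 CPM, with Negative siRNA. The groups did not overlap, although sample 2 was higher than sample 1 in both of them. The log2 fold change was 0.54 ± 0.12 (edgeR adjusted p = 0.00393, 95% interval 0.29 to 0.79). The call was lost without sample 2 of Trps1 siRNA (log2 fold change 0.43, edgeR adjusted p = 0.113). The same happened when Negative siRNA sample 1 was left out (0.38, edgeR adjusted p = 0.0572). The adjusted p over the 12 alternatives ran from 6.35e-05 to 0.113. Counts per gene do not separate the splice forms of BIM, which differ in potency, among the 8 annotated transcripts.

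Bbc3 (ENSMUSG00000002083, chromosome 7, 16308393 to 16318205, plus strand) encodes PUMA, a target of p53. It had 4.64 and 4.42 RPKM with Trps1 siRNA and 4.24 and 3.62 RPKM with Negative siRNA. Both knockdown samples were higher, but the log2 fold change of 0.21 ± 0.15 did not pass the test (edgeR adjusted p = 0.438), and its 95% interval of -0.10 to 0.52 was wide at 176 to 204 reads per library. Bmf (ENSMUSG00000040093, chromosome 2, 118528757 to 118549687, minus strand) encodes a BH3-only protein that is tied to the actin cytoskeleton through dynein light chain 2. It had 11.4 and 8.93 CPM with Trps1 siRNA and 12.7 and 9.77 CPM with Negative siRNA, with a log2 fold change of -0.14 ± 0.16 (edgeR adjusted p = 0.636, 95% interval -0.47 to 0.18). In Bmf the samples numbered 1 were the higher ones of both groups, and the groups overlapped. Its log2 fold change was 0.0227 without sample 2 of Trps1 siRNA and 0.0452 without sample 1 of Negative siRNA, so its sign rested on single libraries.

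Among the pro-survival genes, Bcl2l2 (ENSMUSG00000089682, chromosome 14, 54883377 to 54888234, plus strand) was the one that rose. It had 1233 and 1383 reads, or 69.1 and 63.6 CPM, with Trps1 siRNA, against 1141 and 1374 reads, or 56.8 and 53.7 CPM, with Negative siRNA. The groups did not overlap. The log2 fold change was 0.26 ± 0.07 (edgeR adjusted p = 0.0166, 95% interval 0.12 to 0.41). It was the least firm of the 3 rises, since it did not pass in DESeq2 (adjusted p = 0.0649), without sample 1 of Trps1 siRNA (log2 fold change 0.20, edgeR adjusted p = 0.133) or without sample 2 of Negative siRNA (0.22, edgeR adjusted p = 0.157). The adjusted p over the 12 alternatives ran from 0.00222 to 0.157. The annotated gene Gm20521, on the same strand, shares 13.3% of the exon bases of Bcl2l2 and had 0 reads in all libraries. Bcl2l2 may likewise have lost reads on these bases.

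The 3 other pro-survival genes did not pass the test, and the estimates for all of them were below 0. Bcl2l1 (ENSMUSG00000007659, chromosome 2, 152780668 to 152831728, minus strand), which encodes the abundant mitochondrial guardian BCL-XL, had 182 and 180 CPM with Trps1 siRNA and 197 and 193 CPM with Negative siRNA. Both knockdown samples lay below both controls, and the log2 fold change was -0.11 ± 0.06 (edgeR adjusted p = 0.262, 95% interval -0.22 to 0.01). The gene gives rise to the pro-survival long form and a pro-apoptotic short form by splicing, which counts per gene do not separate. Mcl1 (ENSMUSG00000038612, chromosome 3, 95658788 to 95663176, plus strand), whose protein is short-lived, had 235 and 245 CPM with Trps1 siRNA and 244 and 270 CPM with Negative siRNA. These values overlapped, with a log2 fold change of -0.10 ± 0.06 (edgeR adjusted p = 0.354, 95% interval -0.23 to 0.03). Bcl2 (ENSMUSG00000057329, chromosome 1, 106538178 to 106714274, minus strand) had 88 and 117 reads with Trps1 siRNA and 108 and 174 reads with Negative siRNA. At this depth its log2 fold change of -0.24 ± 0.19 had a 95% interval of -0.63 to 0.14 (edgeR adjusted p = 0.468), the widest of the 10. Bcl2 shares 6.09% of its exon bases with D630008O14Rik on the opposite strand, which had 0 reads.

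Counting groups without overlap in CPM, 4 members were higher in both Trps1 siRNA samples (Bok, Bcl2l11, Bcl2l2 and Bbc3) and 2 were lower (Bcl2l1 and Bax). Of all tested genes, 26.0% were higher without overlap and 26.1% lower without overlap.

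The leave-one-out fits show how far these values moved without 1 sample. Why a call was lost in such a fit was not tested. Bok ranged from 0.56 to 0.73 on the log2 scale and was called in all 4 such fits. Bcl2l11 ranged from 0.38 to 0.72 and Bcl2l2 from 0.20 to 0.32, each called in 2 of the 4.

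**Figure D3:**
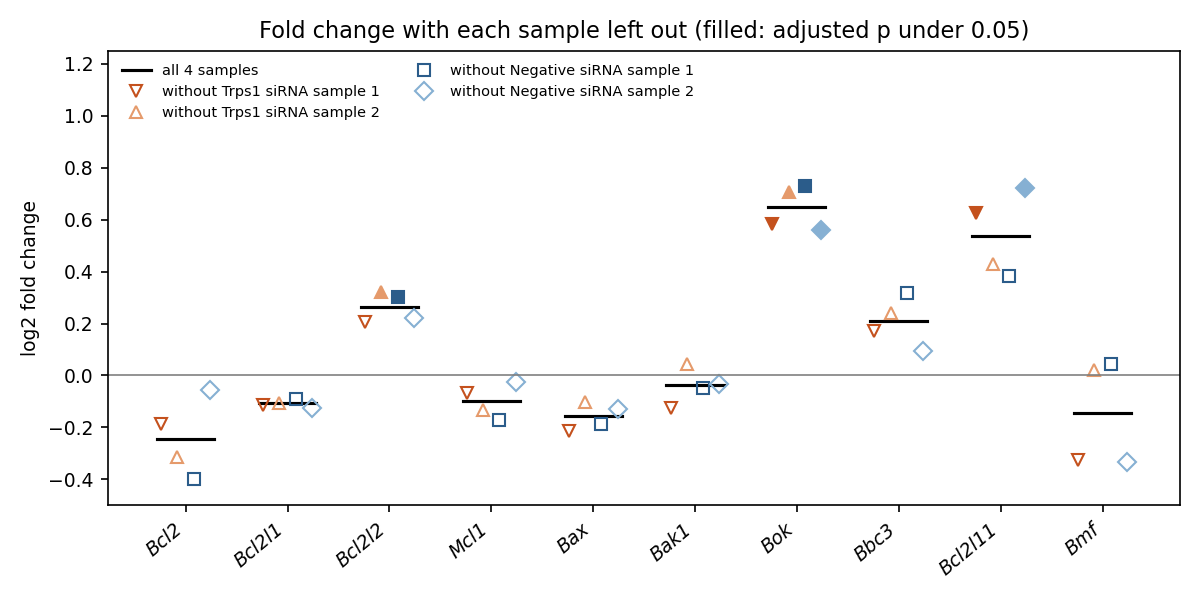
Log2 fold change of each member, Trps1 siRNA over Negative siRNA, with all 4 samples (black bar) and with each sample left out (symbols, filled where the edgeR adjusted p was under 0.05). Bok is filled in all 4 fits, Bcl2l11 and Bcl2l2 in 2 each, and symbols of Bak1 and Bmf fall on both sides of 0.

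Summed per class, the effectors came to 74.2 and 67.5 RPKM with Trps1 siRNA and 64.6 and 63.9 RPKM with Negative siRNA. The pro-survival genes summed to 124 and 126 RPKM with Trps1 siRNA and to 128 and 134 RPKM with Negative siRNA. The BH3-only genes were far below both, with 9.45 and 9.14 RPKM with Trps1 siRNA and 8.38 and 7.66 RPKM with Negative siRNA. Pro-survival transcripts made up 59.8% and 62.2% of the family with Trps1 siRNA and 63.6% and 65.2% with Negative siRNA, so their share was smaller in both knockdown samples. Bok alone made up 13.5% and 12.7% of the family with Trps1 siRNA and 9.06% and 7.88% with Negative siRNA. These shares are descriptions of transcript levels and were not tested.

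**Figure D4:**
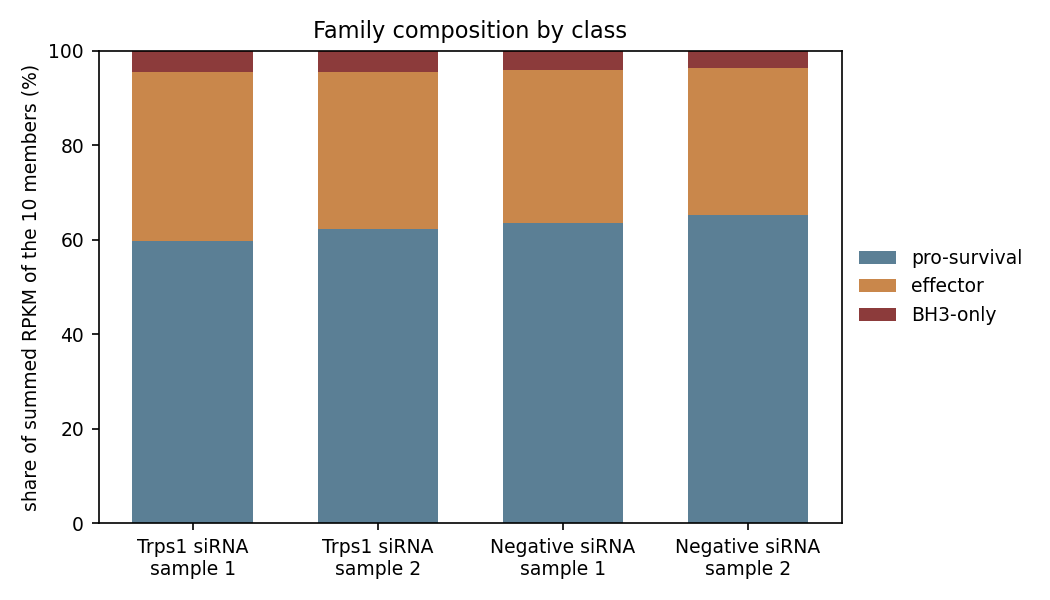
Share of the summed RPKM of the 10 members taken by each class in each library, in percent, with the Trps1 siRNA samples on the left. The pro-survival share is 59.8% and 62.2% with Trps1 siRNA and 63.6% and 65.2% with Negative siRNA.

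The ratio of Bax to Bcl2, often used as a summary of apoptotic balance, was 44.8 and 37.9 on the RPKM scale with Trps1 siRNA and 43.1 and 35.4 with Negative siRNA. The groups overlapped, and the ratio was not tested.

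The promoters of the 3 genes that rose are shown to let their base composition and motifs be compared. The bases, from RefSeq on GRCm38.p6, run 5′ to 3′ and end before the RefSeq start, or for Bcl2l2 before the first annotated exon. Capitals mark a forkhead motif, the letters GTAAACA, which stands in the stretch of Bcl2l11 and in neither of the others.
Bok, chr1:93685325-93685574, plus strand: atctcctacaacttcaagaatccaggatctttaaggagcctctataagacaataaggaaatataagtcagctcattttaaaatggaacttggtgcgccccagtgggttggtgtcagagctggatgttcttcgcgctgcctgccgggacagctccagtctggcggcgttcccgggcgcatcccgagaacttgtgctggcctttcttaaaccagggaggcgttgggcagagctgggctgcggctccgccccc
Bcl2l11, chr2:128125788-128126037, plus strand: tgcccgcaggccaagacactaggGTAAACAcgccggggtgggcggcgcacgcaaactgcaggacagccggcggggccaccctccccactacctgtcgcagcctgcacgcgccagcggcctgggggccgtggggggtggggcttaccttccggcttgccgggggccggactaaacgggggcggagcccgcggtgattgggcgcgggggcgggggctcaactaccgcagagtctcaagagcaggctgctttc
Bcl2l2, chr14:54883175-54883376, plus strand: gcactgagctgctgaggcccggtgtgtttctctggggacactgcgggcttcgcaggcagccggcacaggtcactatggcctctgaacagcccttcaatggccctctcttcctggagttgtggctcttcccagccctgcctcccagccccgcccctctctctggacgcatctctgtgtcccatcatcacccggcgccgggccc
The stretch of Bcl2l11 is 72.0% G and C with 24 CG dinucleotides in 250 bases. That of Bok is 55.2% G and C with 12 CG dinucleotides in 250 bases, and that of Bcl2l2 65.8% with 9 in 202 bases.

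All 10 members had at least 1 RefSeq promoter window, 17 in all, each from 250 bases before to 50 after a start. Both strands were searched for the GATA motif, to which TRPS1 binds, in the letters AGATAA or AGATAG or TGATAA or TGATAG. It was present in 1 of the 17 windows, an internal start of Bcl2l1, and in 29.8% of all 32851 windows. The forkhead motif GTAAACA, recognised by FOXO factors, was present in 2 of the 17 windows, 1 each of Bcl2l11 and Bbc3, and in 3.65% of all windows. The GATA and forkhead matches stood in different genes. A motif match is a description of these letters only. The matches are shown with 10 bases on each side, less at a window's end, and capitals mark the motif.
Bcl2l11, 227 bases before the start, chr2:128125801-128125827, plus strand: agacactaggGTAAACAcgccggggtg
Bbc3, 167 bases before an internal start, chr7:16310084-16310110, plus strand: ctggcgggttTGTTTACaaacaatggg
Bcl2l1, 41 bases before an internal start, chr2:152828515-152828540, minus strand: tgtgacccaaAGATAAagagagcaga
The second GATA match of Bcl2l1 lay 36 bases into the transcript of the same start.

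The genes around the family were described in 5 lists of 69 genes, of which 64 were tested, 8 rose and 6 fell, where 5.24% of all tested genes rose and 6.00% fell. In the list of 15 other family members, 11 were tested, 2 rose and none fell, with a median log2 fold change of -0.16. Both that rose encode BH3-domain proteins known mainly as receptors for the removal of mitochondria. Bnip3 had 143 and 160 CPM with Trps1 siRNA and 114 and 135 CPM with Negative siRNA (log2 fold change 0.29 ± 0.07, edgeR adjusted p = 0.0134). Bnip3l had 241 and 228 CPM with Trps1 siRNA and 190 and 203 CPM with Negative siRNA (0.25 ± 0.06, edgeR adjusted p = 0.00547). Bnip3 shares 22.3% of its exon bases with Gm45507 on the opposite strand. Both calls were lost without sample 1 of Negative siRNA (edgeR adjusted p = 0.234 and 0.127), and that of Bnip3 also without sample 2 of Trps1 siRNA (0.220). The Bcl2a1 genes, pro-survival genes of blood cells, are near-identical copies whose reads may be split, and Bcl2a1d, with 5.38 and 5.66 CPM with Trps1 siRNA and 8.31 and 6.80 CPM with Negative siRNA, did not pass the test (edgeR adjusted p = 0.106). The gene Hrk had 0 reads in all libraries.

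Downstream of the mitochondria, all 17 genes of the apoptosome, the caspases and their inhibitors were tested, 3 rose and 3 fell, with a median log2 fold change of 0.09. Over all tested genes, 5.24% rose and 6.00% fell. Dffa, which encodes the inhibitor of the caspase-activated DNase, rose 1.47-fold, to 17.3 and 18.5 CPM with Trps1 siRNA, against 12.9 and 11.5 CPM with Negative siRNA (edgeR adjusted p = 0.00277). Xiap, the inhibitor of caspases, rose 1.24-fold, to 91.1 and 103 CPM with Trps1 siRNA, against 76.7 and 80.2 CPM with Negative siRNA (edgeR adjusted p = 0.00252). Casp9, the initiator caspase of this pathway, rose 1.19-fold (edgeR adjusted p = 0.0417). Among those that fell were Htra2, a mitochondrial protease that relieves caspase inhibition once released, to 0.807 of the control, and Birc3, an inhibitor of apoptosis, to 0.839 (edgeR adjusted p = 0.0416 and 0.0262). Genes that promote and genes that restrain caspase activity stood on both sides. Dffa and Xiap passed in 11 of 12 alternatives each and were lost without sample 2 of Trps1 siRNA. Casp9 passed in 5 of 12 and was lost in all 4 fits without 1 sample, in DESeq2, without the low-count filter and without robust estimation. Htra2 passed in 7 of 12 and was lost in DESeq2, with library totals alone, without robust estimation, and without sample 2 of Trps1 siRNA or sample 1 of Negative siRNA. Birc3 passed in 8 of 12 and was lost in DESeq2 and without either Trps1 siRNA sample or sample 1 of Negative siRNA. Htra2 shares 25.6% of its exon bases with Aup1 and 18.2% with Loxl3, both on the opposite strand, and Casp9 shares 1.81% with Cela2a and Ctrc, so their counts are uncertain where strand was not used. Diablo, which had a mean of 1.03 CPM with Trps1 siRNA and 0.849 CPM with Negative siRNA, shares exon bases with Gm49027 on the same strand.

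Among binding partners and regulators of the family, 1 of 15 tested genes rose and 3 fell, with a median log2 fold change of 0.02. Over all tested genes, 5.24% rose and 6.00% fell. Vdac1, the main channel of the outer mitochondrial membrane, fell to 0.725 of the control, with 249 and 235 CPM with Trps1 siRNA and 325 and 342 CPM with Negative siRNA (log2 fold change -0.46 ± 0.06, edgeR adjusted p = 5.89e-06). Vdac2, the channel that holds BAK in check, fell to 0.829, with 206 and 195 CPM with Trps1 siRNA and 239 and 246 CPM with Negative siRNA (edgeR adjusted p = 0.00245), and Vdac3 had a log2 fold change of 0.00 ± 0.06 (edgeR adjusted p = 0.993). The falls of Vdac1 and Vdac2 held in all 12 alternatives. Fbxw7, the ubiquitin ligase subunit that marks MCL1 protein for degradation, rose 1.47-fold, to 24.5 and 29.3 CPM with Trps1 siRNA, against 18.5 and 18.3 CPM with Negative siRNA (edgeR adjusted p = 0.000829). Its call was lost without sample 2 of Trps1 siRNA (edgeR adjusted p = 0.0632). Dynll1, the dynein light chain that binds BIM, fell to 0.880 (edgeR adjusted p = 0.0441), a call that held in 5 of 12 alternatives and in 1 of the 4 fits without a sample, that without sample 1 of Trps1 siRNA.

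Of 12 tested transcription factors known to control family members, 2 rose and none fell, with a median log2 fold change of 0.09. Over all tested genes, 5.24% rose and 6.00% fell. Foxo3, a forkhead factor that activates Bcl2l11 and Bbc3 in several cell types, had 117 and 122 CPM with Trps1 siRNA and 102 and 103 CPM with Negative siRNA (1.16-fold, edgeR adjusted p = 0.0122). Stat5b, a factor that activates Bcl2l1 in blood cells, rose 1.19-fold (edgeR adjusted p = 0.00943). The Foxo3 call held in 8 of 12 alternatives and was lost in DESeq2 (adjusted p = 0.0574) and without sample 2 of Trps1 siRNA or either Negative siRNA sample, and that of Stat5b was lost without sample 2 of either group. Trp53, the factor that activates Bbc3 and Bax, had a log2 fold change of 0.04 ± 0.06 (edgeR adjusted p = 0.749). None of 9 genes of the death receptor pathway passed in edgeR (2 had an unadjusted p under 0.05), DESeq2 or voom, and their median log2 fold change was 0.03. The lowest p was that of Casp8, the initiator caspase that cleaves BID, with 33.3 and 34.9 CPM with Trps1 siRNA and 38.7 and 42.0 CPM with Negative siRNA (log2 fold change -0.24 ± 0.08, edgeR adjusted p = 0.0565), and it passed with the replicate number as a block (0.0235), without the low-count filter (0.0452) and among genes of at least 5 CPM (0.0376).

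**Figure D5:**
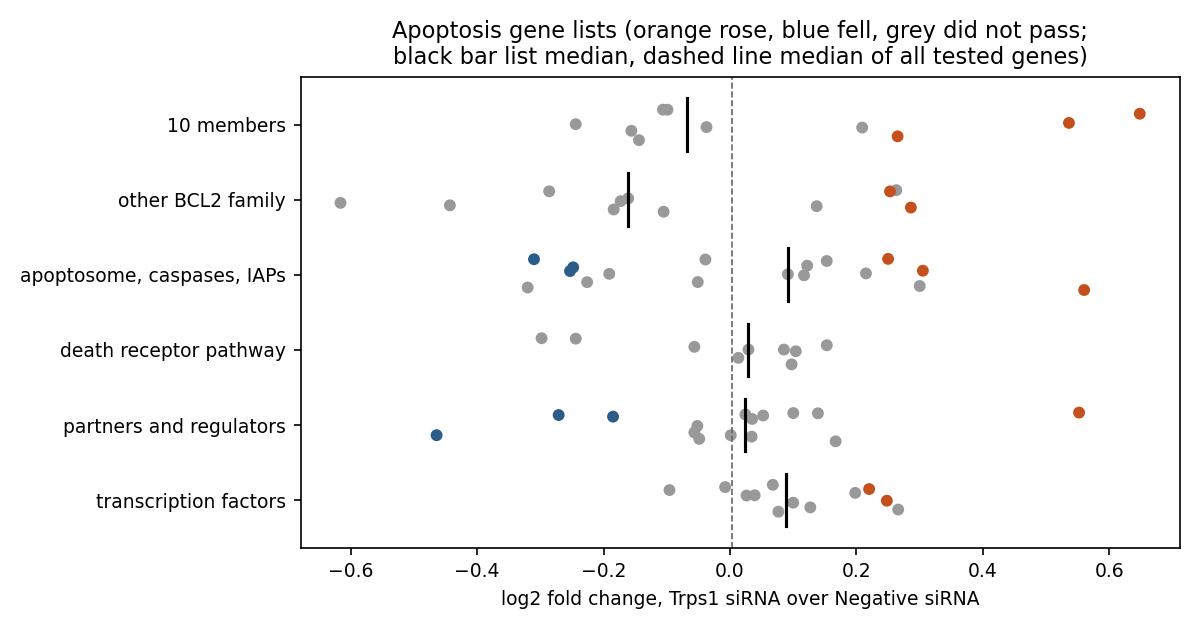
Log2 fold change, Trps1 siRNA over Negative siRNA, of each tested gene in the 10 members and the 5 other apoptosis lists, in orange where it rose, blue where it fell and grey where it did not pass the test. Black bars are list medians, between -0.16 and 0.09, and the dashed line is the median of all tested genes.

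Over the 4 samples, the 3 protein-coding genes with the pattern nearest to that of Bok, out of 10483 with a mean of at least 5 CPM, were Mocs2, Tacr2 and Rapgef4. Nearness was the Euclidean distance between log2 CPM centred on each gene's mean, and came to 0.067, 0.0671 and 0.0743. Mocs2 had 56.2 and 54.0 CPM with Trps1 siRNA and 36.3 and 33.7 CPM with Negative siRNA. With 4 samples in 2 groups, this likeness mostly restates a shared size of change.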

How the data were processed

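RNA was sequenced by the study's authors from 4 samples of primary mouse Leydig cells, and the authors deposited raw read counts per gene. HISAT2 and featureCounts are named in the submitters' processing notes, with GRCm38 (mm10) as the build. No version, read length, strand setting or rule for reads on shared exon bases was given, so genes that share exon bases are uncertain. The authors' deposited table holds, for selected genes, the mean signal per group, the log2 fold change of those means, and p-values from a test that no source here names.

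Counts were fitted with edgeR 4.0.16 (R 4.3.3): genes were filtered by filterByExpr (min.count 10), scaled by TMM and tested by glmQLFTest after a robust glmQLFit, with the group as the only term, over all 14701 genes that passed, with Benjamini-Hochberg adjustment and a threshold of 0.05. The fit was also run on counts simulated from its own estimates, which cannot show how well it describes the real samples. Standard errors are the log2 fold change over the square root of F. CPM used TMM-scaled totals, and RPKM divided by the union of GENCODE M21 exons. The depth of 17844125 to 25852898 counts limits the precision of genes with few reads. Replicates were compared before averaging: a chi-square of their counts averaged 3.47 per gene with Trps1 siRNA and 5.55 with Negative siRNA, above sampling noise.

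The members and lists were chosen with earlier results of these data known. Named were all members, Trps1, list genes that passed the test or else the lowest p (1 such gene is not reported here), and the nearest genes to Bok. Bcl2a1d, Hrk, Diablo, Vdac3, Trp53 and the motifs were chosen after values were seen. The 411 features without an Ensembl identifier held 0.136% of counts. Alternatives were RLE factors, library totals alone, no filter, DESeq2 1.42.0, a 5 CPM minimum on the mean, voom of limma 3.58.1, no robust estimation, a replicate block and each sample left out.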

Additional observations from a re-analysis of the deposited data

How the results depend on the processing

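All 10 members kept their direction in 12 alternatives, except Bak1 (-0.125 to 0.0456 with a sample left out, above 0 without sample 2 of Trps1 siRNA) and Bmf (-0.332 to 0.0452, above 0 without that sample, at 0.0227, and without sample 1 of Negative siRNA). The count of members called was 3, 2 with DESeq2 and 2 in each fit without 1 sample. The 1652 genes called became 991 with DESeq2, and 871 to 1675 with a sample left out, the fewest without sample 2 of Trps1 siRNA. With a sample left out, calls numbered 0 to 2 among other family members, 0 to 4 in the apoptosome and caspase list, 2 to 4 among partners, 0 to 2 among transcription factors and 0 to 0 in the death receptor list. DESeq2 called 2 in the apoptosome list and 1 transcription factor. Casp8 made the death receptor count 1 without the filter, at a mean of at least 5 CPM and with the replicate block. Without exon length the mean ratio of Bax to Bcl2 was 7.11 with Trps1 siRNA and 6.76 with Negative siRNA, against 41.3 and 39.3 on the RPKM scale. Samples of the same number hardly deviated together (correlation of 0.0165 across genes). The labels do not say whether a number marks a shared culture or day, so the numbers were not taken as pairs. The replicate block called 2285 genes and the same 3 members. RLE factors and library totals moved the median gene by -0.000366 and 0.013 on the log2 scale. The cause of lost calls was not tested, beyond the fewer samples of the fits that left 1 out, where the lone sample is assumed to vary like the others. Bcl2, Bbc3 and Bmf had the fewest reads of the members, 88 to 255 per library, and the widest intervals.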
